A study of Mus musculus with 36 samples.

Results

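RAW264.7 cells given the peptide 65–79*PE together with Il-4 were compared with cells given PBS. RAW264.7 is a mouse macrophage line, and the 12 libraries compared, 6 of each group, were all the libraries that the sample labels place in these groups of the Il-4 count table, out of 36 in the series. In PE cultures (PE stands for the peptide plus Il-4 from here on) the peptide was given at 100 µg/ml and Il-4 at 5 ng/ml, the medium was changed once at 48 h, and RNA was taken at 72 h. The peptide is a synthetic 15-mer covering residues 65 to 79 of a human HLA-DRβ chain, from an allele linked to protection from rheumatoid arthritis. PBS cultures ran for the same time, and their treatment label names PBS alone while their titles also carry the name of the cytokine, so whether they received Il-4 is not settled by the labels. The Il-4 targets Cish and Arg1, described below, had 6 and 4 counts over all 6 PBS libraries, against 1110 and 980 in PE. What the PBS cultures received was not tested. As labelled, peptide and cytokine entered the contrast together and their shares in it cannot be told apart. The other 24 libraries held cells given the susceptibility peptide 65–79*SE with Il-4, and the 3 groups of a matching table with IFNγ. RAW264.7 is a single cell line, so replicates are cultures of the same cells. The study describes them as biological replicates, several of them from the same experiment. The labels name replicates 1–3 and 4–6 by different schemes, called label sets here.

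Il-4 binds a receptor whose specific chain is Il4ra, pairs it with the common γ chain (Il2rg) or Il13ra1, and activates the kinases Jak1 and Jak3 or Tyk2. These phosphorylate Stat6, which enters the nucleus and turns on genes. In macrophages the programme is known as alternative or M2 activation, and in mouse cells its usual markers are the arginase Arg1, the mannose receptor Mrc1, the lectins Mgl2 and Clec10a and the feedback inhibitors Cish and Socs1.

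The libraries held 17049921 to 26397467 counts in PBS and 17934349 to 30639021 in PE. The cells carried the defining transcripts of macrophages in every library, with Csf1r, the M-CSF receptor, at 567 to 1542 CPM and lysozyme (Lyz2) at 2940 to 6006 CPM, where CPM is the usual depth-scaled count, with library totals adjusted by TMM. Marco, a scavenger receptor in the same marker list, had no count in any of the 12, and Mertk reached at most 11 counts. Of 18 markers of B, T, NK, mast, dendritic, stromal and epithelial cells and neutrophils, 10 had no count in any library. All but Zbtb46 summed to 2 to 13 counts per library in PBS and 2 to 9 in PE, while Zbtb46, a dendritic cell factor, had 12 to 31 and 27 to 42. The label sets differed in the make-up of their counts in both groups alike. Histone genes summed to 55.4 to 131 CPM in replicates 1–3 and 5094 to 15510 in replicates 4–6. Protein-coding genes took 95.4 to 97.5% of the counts in the first set and 78.6 to 87.4% in the second. The label set was therefore a term in the model.

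Of 13544 genes tested, 328 were higher with PE and 313 were lower, by edgeR's quasi-likelihood test with a Benjamini-Hochberg adjusted p below 0.05 and a change of more than 1.5 times. That is 4.73% of the genes tested, 2.42% higher and 2.31% lower, and these shares are the background for every list below. For counts by unadjusted p or by sign the background is wider. Of the 13544 genes, 4210 had an unadjusted p under 0.05 and 5983 had a positive log2 fold change. Genes past both limits are said to rise or fall, and a log2 change is the fitted log2 of PE over PBS, given with its standard error (SE). The rises reached further: 36 genes rose and 7 fell by more than 2 on the log2 scale, and the median log2 fold change was 0.95 among the rises, -0.82 among the falls and -0.04 over all genes tested. Protein-coding genes made up 518 of the 641. A fit of protein-coding genes alone tested 10919 genes, against the 13544 of all classes here, so nothing is read from this count. In 204 of the rises every PE library was above every PBS library of its label set, and in 227 of the falls every PE library was below, which held for 4.72% and 6.11% of all genes tested. In bulk RNA, a lower level in each cell and fewer cells that carry a transcript cannot be told apart.

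Cish and Socs1, inhibitors that Stat proteins induce against their own pathway, both rose. Cish (chr9:107296026-107302784, GRCm38) had 6 counts over all 6 PBS libraries, at most 2 in any, and 82 to 334 counts in each PE library, 1110 in all. Scaled to library size, the pooled ratio was 165, with an exact 95% counting interval of 75.7 to 452 that covers counting error only. PBS was thus at or near the floor of 3 counts in every library, and no PE library was. Socs1 (chr16:10782240-10785536) was at 0.555–2.23 (median 1.12) CPM in PBS and at 2.88–4.60 (median 3.83) CPM in PE. The groups did not overlap and the log2 change was 1.70 ± 0.25 (SE), adjusted p = 3.98e-04, although the change was 2.45 in replicates 1–3 and 1.06 in replicates 4–6, where it did not pass alone.

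The receptor chains Il4ra and Il13ra1 went the other way. Il4ra (chr7:125552120-125579474) was at 3.74–6.98 (median 5.74) CPM in PBS and 2.43–6.01 (median 3.07) CPM in PE, a log2 change of -0.64 ± 0.18 (SE), adjusted p = 0.0221. Its groups overlapped, and the call was lost without PE replicates 2, 3, 4 or 5 (log2 changes of -0.62 to -0.51, adjusted p-values of 0.0518 to 0.0677 in those fits). Il13ra1, the partner chain of the type II receptor, was at 23.3–64.6 (median 30.1) CPM in PBS and 11.99–47.8 (median 18.7) in PE, with a log2 change of -0.74 ± 0.19 (SE), adjusted p = 0.0151. Its change was -0.93 in replicates 1–3 and -0.53 in replicates 4–6, where the groups overlapped and it did not pass alone (adjusted p = 0.356). The call of Il13ra1 was lost in 5 of the alternative fits. Stat6 itself did not pass the fold limit, with 158–255 (median 211) CPM in PBS, 141–226 (median 183) in PE and a log2 change of -0.18 ± 0.06 (SE), adjusted p = 0.0398. Jak1, Jak3, Tyk2 and Il2rg, the kinases and the common γ chain, had log2 fold changes of -0.13, -0.26, -0.16 and 0.01, none past the test. The phosphatase gene Inpp5d and the kinase subunit gene Pik3cd missed the fold limit at -0.56 and -0.50 with adjusted p-values of 9.72e-04 and 0.00871. Pik3r1, Akt1, Akt2, Il13ra2, Socs3, Ptpn1 and Ptpn6 did not pass either. In all, 2 of 18 tested genes of this signalling list rose and 2 fell, and the list's median log2 fold change was -0.14. Of these, Cish could pass the count filter only through its PE counts. The Il4 and Il13 genes had no count in any of the 12 libraries.

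Stat proteins bind palindromes of TTC and GAA, and the spacing of 4 bases, TTCNNNNGAA, is the one Stat6 is known to prefer, while TTCNNNGAA is shared by most family members. RefSeq promoter entries (GRCm38.p6, from 250 bases before to 50 after each annotated start) were found for 86 of 116 genes examined here, and both motifs, which read the same on either strand, were searched in them. TTCNNNNGAA stood in 7 of 32 of these genes that rose and in 4 of 34 that fell, and in 8.01% of the 27025 genes of the table (6.95% of its 32851 promoters, all of the same length). TTCNNNGAA stood in 2 and 3 of them, and in 9.55% of all genes (8.30% of promoters). Only 193 of all 328 genes that rose and 225 of 313 that fell had an entry, under 80%, so a comparison of shares is void and nothing is read from these counts. The 30 bases around a match are shown for some of the genes described here, with the matched letters in capitals. They show that such a match stood near genes that rose and near genes that fell. A match is only a match of letters, and no binding was measured.

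Genes that rose, with positions in GRCm38.p6:
Cish, chr9:107296654-107296683, plus strand: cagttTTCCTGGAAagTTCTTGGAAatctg
Tmem26, chr10:68723509-68723538, plus strand: gtggagggcaTTCTTATGAActccctgggg
Tmem26, chr10:68723695-68723724, plus strand: ctttgaagagTTCTCTGGAAgttggagggg
Tlr8, chrX:167264387-167264416, minus strand: taaatgacttTTCCTCTGAAttcagtttcg
Pdcd1lg2, chr19:29410827-29410856, plus strand: catgctccagTTCCTCAGAAaccattctgg
Clec7a, chr6:129472891-129472920, minus strand: catttcagttTTCTTCAGAAgttacagcct
Genes that fell:
Nlrp3, chr11:59542554-59542583, plus strand: ggcttcctccTTCCTTTGAAaataaaagca
Il1rn, chr2:24345160-24345189, plus strand: tgtgctcttcTTCCCAGGAAcaccatgaag

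Cish held a pair of the shorter motif, opening at the first and at the twelfth base of the RefSeq transcript, whose start lies inside the GENCODE gene span given above. In Tmem26 a match opened 41 bases before the start and another 227 before it.

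Most of the effector genes of alternative activation that could be tested rose. The list held 30 genes and 16 passed the count filter, of which 11 rose and 1 fell, with a median log2 fold change of 2.05. A gene silent in PBS, such as Slc7a2, could pass that filter only through its PE counts. The count and the median therefore do not stand for the whole list. This list was drawn up from known markers with earlier results of these data in view, so its direction is a description. Mgl2 (chr11:70130329-70137550), a galactose-binding lectin, was at 0–0.370 (median 0.223) CPM in PBS and at 36.1–77.6 (median 52.4) CPM in PE, and its log2 change was 8.02 ± 0.20 (SE), adjusted p = 1.62e-12. Its neighbour and paralog Clec10a (chr11:70156197-70170834) was already transcribed in PBS at 14.8–43.97 (median 31.02) CPM and rose to 82.4–185 (median 128) CPM, a log2 change of 2.10 ± 0.11 (SE), adjusted p = 1.28e-08. The groups were apart for both genes. Only uniquely aligned reads were counted, so reads shared by the pair would be missing from both.

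Mrc1 (chr2:14229392-14332057), the mannose receptor, went from 1.36–1.86 (median 1.72) CPM in PBS to 31.6–52.97 (median 35.5) CPM in PE, a log2 change of 4.51 ± 0.14 (SE), adjusted p = 2.96e-11. The highest PBS library was far below the lowest PE library. Arginine is the substrate of Arg1 and enters macrophages through the transporter Slc7a2, and both genes went from near silence to a few CPM. Arg1 (chr10:24915221-24927484) had 4 counts over the 6 PBS libraries, 3 of them in replicate 5, and 62 to 302 counts in each PE library, a pooled ratio of 219 (exact 95% counting interval 85.3 to 805). Slc7a2 (chr8:40862396-40922308) had no count in any PBS library and 70 to 268 in each PE library, at least 261-fold higher against a floor of 3 counts over the PBS group. In CPM, which is not scaled to transcript length, Arg1 was at 3.57–11.4 (median 5.59) in PE. Ass1, which rebuilds arginine from citrulline, rose with a log2 change of 0.89 ± 0.18 (SE), adjusted p = 0.00376. In all, 3 of 14 genes of arginine and polyamine metabolism rose while none fell. Arg1 and Slc7a2 could pass the count filter only through their PE counts and so could only rise. The count therefore gives no direction for the list.

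**Figure D1:**
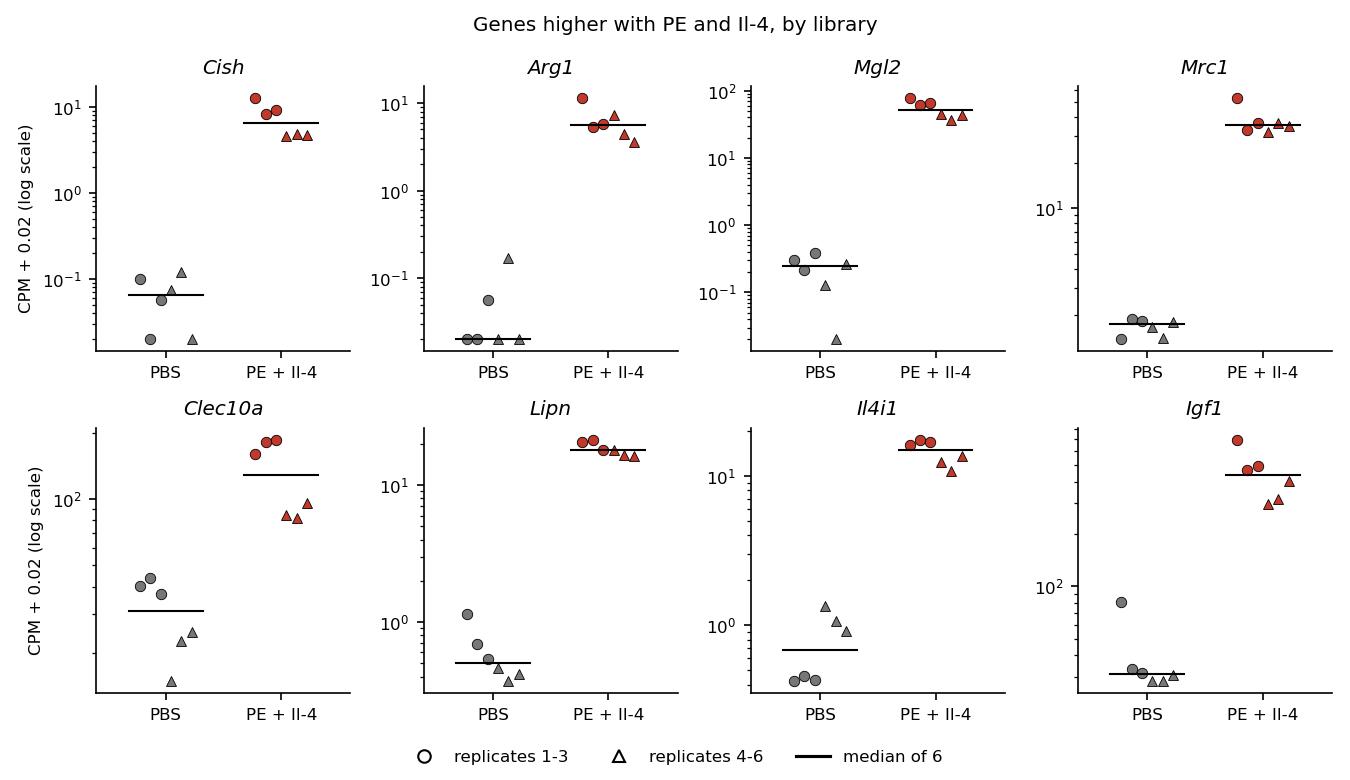
CPM plus 0.02 on a log scale (y axis, one scale per gene) of 8 genes in 6 PBS libraries (grey) and 6 libraries of 65–79*PE with Il-4 (red), with circles for replicates 1–3, triangles for replicates 4–6 and a line at the median. In each of the 8 genes every PE library lies above every PBS library, and in Il4i1 the PBS libraries of replicates 4–6 lie above those of replicates 1–3.

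The other effectors that rose were Igf1, Mmp12, Flt1, Pdcd1lg2, Clec7a and Ptgs1. Igf1 (chr10:87858265-87937042), a growth factor, was at 28.4–81.1 (median 31.4) CPM in PBS and 296–693 (median 436) CPM in PE, a log2 change of 3.52 ± 0.21 (SE), adjusted p = 7.98e-08. PBS replicate 1 was the highest of its group and still below the lowest PE library. Macrophage elastase, Mmp12 (chr9:7344381-7369499), went from 0.185–1.44 (median 0.659) CPM to 16.7–75.6 (median 20.8) CPM, with PE replicate 1 far above the other 5, and its log2 change was 5.42 ± 0.46 (SE), adjusted p = 3.21e-06. Flt1, a receptor for VEGF, went from 1.44–2.31 (median 2.05) to 8.80–14.6 (median 11.2) CPM, a log2 change of 2.55 ± 0.17 (SE), adjusted p = 1.87e-07. Pdcd1lg2 encodes PD-L2, a ligand that restrains T cells, and its level was low in both groups at 0.119–0.399 (median 0.267) and 0.627–1.34 (median 1.06) CPM. Its log2 change was 2.00 ± 0.27 (SE), adjusted p = 2.02e-04. Clec7a (dectin-1, a β-glucan receptor) and Ptgs1 (cyclooxygenase 1) had log2 fold changes of 1.68 ± 0.24 and 1.28 ± 0.17 (SE), with adjusted p-values of 2.85e-04 and 1.39e-04, and in neither did the groups overlap. Il1rn, the antagonist of the interleukin 1 receptor, was the member that fell, from 138–249 (median 144) to 70.6–140.1 (median 92.6) CPM, with a log2 change of -0.73 ± 0.17 (SE), adjusted p = 0.0105, a call lost without PBS replicate 1 (log2 change -0.57, adjusted p = 0.0163). Tgm2, Alox15, Cd200r1 and Matk did not pass, at log2 fold changes of -0.27, -0.37, 0.14 and 0.90.

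Several textbook markers had few or no counts in either group. Retnla, Ccl17 and Ch25h had no count in any of the 12 libraries, which allows up to 3 counts in each library. Chil3 had 2 counts over all PE libraries and none in PBS. Ccl22 had 13 counts in PBS and 14 in PE over all libraries, and Ccl24 had 7 and 10. None of these genes reached the level of Arg1, which had 62 to 302 counts in each PE library. Smaller differences in them were not detectable at this depth.

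Among the transcription factors tied to alternative activation, 3 of 19 rose and 3 fell, around a list median of 0.18. Egr2 rose from 1.29–4.21 (median 2.17) to 4.15–21.01 (median 8.52) CPM, a log2 change of 1.98 ± 0.22 (SE), adjusted p = 3.89e-05, with no overlap within a label set but overlap across them. Irf4, a partner of Stat6, rose from 3.09–14.1 (median 8.40) to 12.5–34.4 (median 18.6) CPM, a log2 change of 1.33 ± 0.23 (SE), adjusted p = 0.00119. Maf, a factor of macrophage differentiation, fell from 1.38–4.01 (median 1.78) to 0.345–1.36 (median 0.548) CPM, a log2 change of -1.65 ± 0.31 (SE), adjusted p = 0.00269, with the groups apart. Kdm6b, a histone H3K27 demethylase that macrophage stimuli induce, and Ppard, a nuclear receptor for fatty acids, fell with log2 fold changes of -0.76 ± 0.09 and -0.82 ± 0.11 (SE) and adjusted p-values of 4.11e-05 and 2.78e-04. Pparg, its relative, had 40 to 101 counts per library in PBS and 54 to 117 in PE.

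The 12 largest rises among abundant, named genes, taken by a rule that asked for a mean of at least 10 CPM in the higher group and no overlap within either label set, included 6 of the effectors above, and the rest were Lipn, Il4i1, Itgax, Tlr8, Tmem26 and Abcd2. Lipn (chr19:34067358-34084918), a lipase of the acid lipase family, rose from 0.349–1.12 (median 0.479) to 16.3–21.3 (median 18.1) CPM, a log2 change of 4.98 ± 0.17 (SE), adjusted p = 6.79e-11. Il4i1 (chr7:44816387-44840809) encodes a secreted L-amino acid oxidase and rose from 0.401–1.32 (median 0.665) to 10.7–17.4 (median 14.9) CPM, a log2 change of 4.33 ± 0.25 (SE), adjusted p = 5.35e-08. Every PE library of both genes was above every PBS library. Itgax (CD11c, an integrin chain) rose from 3.03–8.70 (median 4.32) to 12.6–88.5 (median 23.97) CPM with PE replicate 1 the highest, a log2 change of 2.68 ± 0.27 (SE), adjusted p = 1.61e-05. Tlr8, an endosomal sensor of single-stranded RNA, rose from 1.20–4.48 (median 3.68) to 6.98–31.7 (median 20.03) CPM, a log2 change of 2.39 ± 0.21 (SE), adjusted p = 3.99e-06. Its PE levels were 6.98 to 11.7 CPM in replicates 1–3 and 28.4 to 31.7 CPM in replicates 4–6. Tmem26, a membrane protein known as a marker of beige fat cells, and Abcd2, a peroxisomal transporter of very long chain fatty acids, had log2 fold changes of 2.03 ± 0.20 and 1.79 ± 0.13 (SE), with adjusted p-values of 1.30e-05 and 7.59e-07.

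Few other lipid genes changed. Cd36, the fatty acid transporter and scavenger receptor, rose from 162–252 (median 185) to 325–573 (median 479) CPM, a log2 change of 1.23 ± 0.14 (SE), adjusted p = 4.48e-05, and was the 1 call among 17 genes of fatty acid uptake and oxidation. Acadm and Acadl, dehydrogenases of mitochondrial β-oxidation, had log2 fold changes of 0.34 and 0.28, with adjusted p-values of 0.0105 and 0.00598, and missed the fold limit. None of 22 sterol synthesis genes and none of 15 glycolysis genes was called by edgeR or by DESeq2, with 3 and 1 at an unadjusted p under 0.05 and list medians of -0.04 and 0.16. Among 10 targets of oxysterol receptors, Arl4c rose with a log2 change of 1.69 ± 0.18 (SE), adjusted p = 2.76e-05, and Apoe fell with -0.75 ± 0.22 (SE), adjusted p = 0.0326, a call lost on leaving out any one of 8 libraries, namely PBS replicates 2, 3, 5 or 6 or PE replicates 1, 4, 5 or 6 (log2 changes of -0.77 to -0.61, adjusted p-values of 0.0553 to 0.0996 in those fits), while Abca1 (-0.82) and Abcg1 (0.30) did not pass.

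Genes of complement and of surface lectins divided by member. C1qb and C1qc, chains of the complement starter C1q, rose with log2 fold changes of 2.29 ± 0.27 and 2.75 ± 0.34 (SE) and adjusted p-values of 7.03e-05 and 8.28e-05, from levels of at most 0.555 and 0.441 CPM in PBS. C3 and its fragment's receptor C3ar1 rose too, with 1.75 ± 0.20 and 0.84 ± 0.09 (SE) and adjusted p-values of 4.31e-05 and 2.82e-05. Fcgr1, the high-affinity IgG receptor, fell by 0.67 on the log2 scale (SE 0.17, adjusted p = 0.0137), a call lost without PBS replicates 1 or 6 (log2 changes of -0.57 to -0.51, adjusted p-values of 0.0247 to 0.0335 in those fits). The list held 14 tested genes, 5 of them higher and 1 lower, around a median of -0.05. Of 14 C-type lectins and scavenger receptors 5 rose, all of them named above, and Clec4n (dectin-2) fell from 2.48–6.88 (median 4.90) to 0.699–2.02 (median 1.37) CPM, a log2 change of -1.78 ± 0.16 (SE), adjusted p = 3.93e-06. Among macrophage identity genes, Adgre1 (F4/80) rose from 119–158 (median 148) to 205–361 (median 251) CPM, a log2 change of 0.87 ± 0.11 (SE), adjusted p = 1.21e-04, while Csf1r stood at -0.29, short of the fold limit.

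Type I interferon response genes lay lower with PE. Of 23 tested genes, 11 fell and none rose by edgeR's test, every member had a negative log2 fold change, and the list median was -0.69. Rsad2 (viperin) went from 2.11–5.43 (median 4.05) to 0.990–1.65 (median 1.32) CPM, a log2 change of -1.51 ± 0.15 (SE), adjusted p = 1.61e-05. Ifit1, a binder of foreign RNA caps, had -1.36 ± 0.16 (SE), adjusted p = 7.27e-05, and Ifi44 had -0.97 ± 0.10 (SE), adjusted p = 1.92e-05. The groups were apart in all 3. Irf7, the factor that amplifies interferon production, had -1.03 ± 0.15 (SE), adjusted p = 3.77e-04, Oas3 -0.90 ± 0.12 (SE) and Rtp4 -0.98 ± 0.17 (SE), with adjusted p-values of 2.12e-04 and 0.00131 for these last. Isg15, Ifit3, Mx2, Oas2 and Oasl2 made up the rest of the falls. Ifi44l (chr3:151758737-151762892), a relative of Ifi44 outside the list, fell from 14.5–25.4 (median 20.98) to 3.36–8.99 (median 5.54) CPM, a log2 change of -1.83 ± 0.18 (SE), adjusted p = 1.61e-05, again with no overlap.

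Inflammatory signals fell in part. Cxcl2, a chemokine for neutrophils, went from 14.6–37.6 (median 22.1) to 5.52–9.34 (median 7.82) CPM, a log2 change of -1.67 ± 0.23 (SE), adjusted p = 2.35e-04, and no PE library reached a PBS one. Tnf went from 36.7–72.02 (median 54.2) to 12.7–37.4 (median 26.5) CPM, a log2 change of -1.08 ± 0.16 (SE), adjusted p = 4.41e-04, with the groups apart within each label set and overlapping across them. Cxcl10 was low, at 0.370–2.54 (median 0.985) and 0.0835–0.344 (median 0.242) CPM, with a log2 change of -2.20 ± 0.42 (SE), adjusted p = 0.00260. Il23a had -1.38 ± 0.37 (SE), adjusted p = 0.0205, and passed in neither label set alone. Ccl6, a chemokine that Il-4 and Il-13 are known to induce, rose from 1.15–2.81 (median 2.04) to 4.80–20.4 (median 7.03) CPM, a log2 change of 2.13 ± 0.23 (SE), adjusted p = 2.76e-05. In total 4 of 13 tested cytokines and chemokines fell and 1 rose, around a median of -0.21. Ccl3 (-0.27) and Ccl2 (-0.27) did not pass.

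The study's own M1 and M2 markers were chosen by its authors in work on the same peptides, so they are no independent evidence. Of 5 tested M1 markers, 3 fell (Tnf, Cxcl10 and Il23a), and Nos2, the inducible nitric oxide synthase, stood at 0.04 with an adjusted p of 0.952. Of 4 M2 markers, 2 passed the count filter, Arg1 and Mgl2, and both rose. Arg1 and Mgl2 had 4 and 29 counts over all 6 PBS libraries and could pass that filter only through their PE counts. Their direction was therefore fixed by the filter. Ccl17 and Chil3 (Ym1), which the paper also uses as M2 markers, were at or near 0 in both groups.

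**Figure D2:**
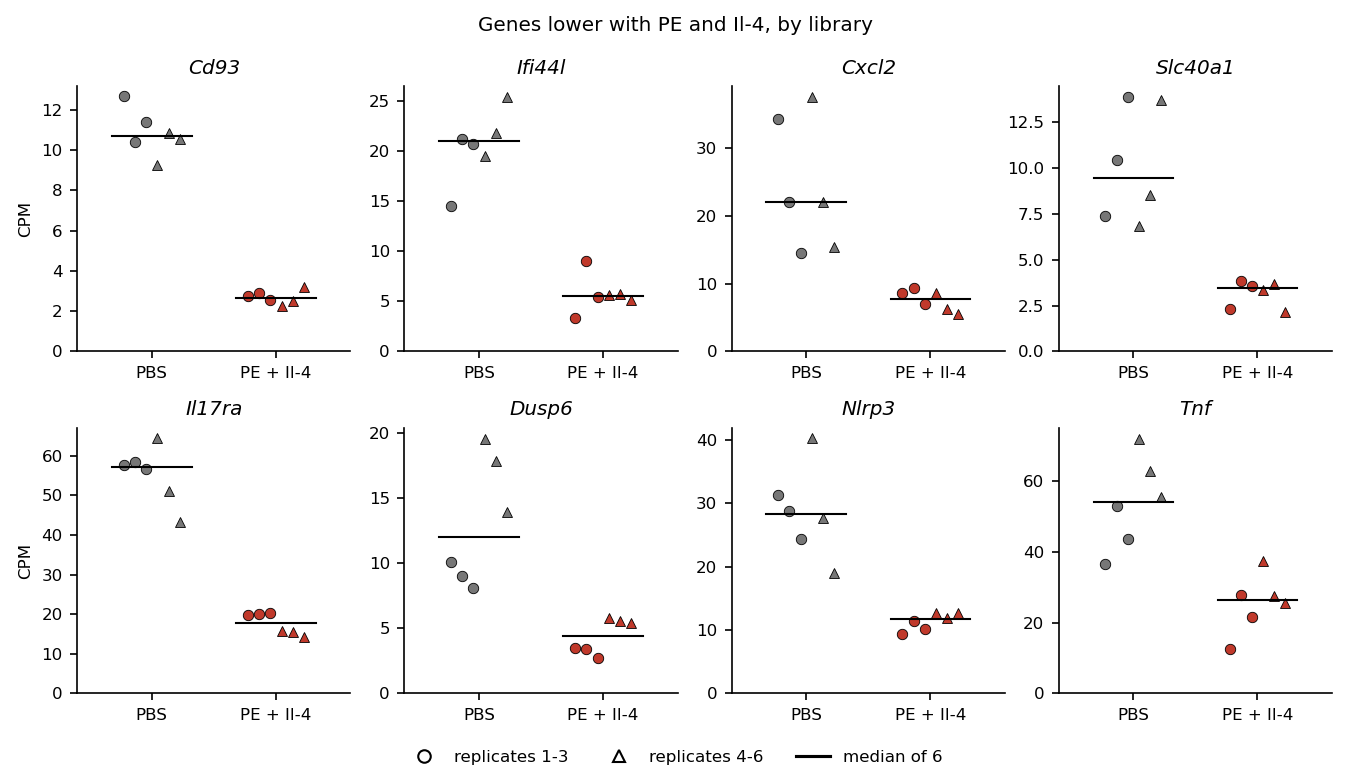
CPM (y axis, from 0, one scale per gene) of 8 genes in 6 PBS libraries (grey) and 6 libraries of 65–79*PE with Il-4 (red), with circles for replicates 1–3, triangles for replicates 4–6 and a line at the median. In 7 of the 8 genes every PE library lies below every PBS library, and in Tnf this holds within each label set.

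Of the 12 largest falls by the same rule, Cd93 led. Cd93 (chr2:148436640-148443563), a receptor with a part in the clearance of dying cells, went from 9.26–12.7 (median 10.7) to 2.26–3.22 (median 2.65) CPM, a log2 change of -2.01 ± 0.11 (SE), adjusted p = 3.58e-08. It changed by -2.02 in replicates 1–3 and -1.95 in replicates 4–6, and the groups lay wide apart. Il17ra, the receptor for interleukin 17, went from 43.2–64.5 (median 57.2) to 14.3–20.3 (median 17.9) CPM, a log2 change of -1.65 ± 0.09 (SE), adjusted p = 5.05e-08. Slc40a1, ferroportin, exports iron from macrophages, and its level went from 6.83–13.9 (median 9.47) to 2.13–3.83 (median 3.48) CPM, a log2 change of -1.67 ± 0.21 (SE), adjusted p = 9.66e-05. Dusp6, a phosphatase that silences ERK and is itself an ERK target, went from 8.10–19.6 (median 12.02) to 2.72–5.82 (median 4.44) CPM, a log2 change of -1.55 ± 0.11 (SE), adjusted p = 5.81e-07. The groups did not overlap in any of these genes. Nlrp3, the inflammasome sensor, went from 19.1–40.3 (median 28.2) to 9.45–12.7 (median 11.7) CPM, a log2 change of -1.33 ± 0.15 (SE), adjusted p = 3.28e-05. Siglec1, the sialic acid receptor of tissue macrophages, fell with -1.23 ± 0.13 (SE), adjusted p = 2.24e-05, its groups apart only within label sets. Sema4d (a semaphorin), Gpr84 (a receptor for medium-chain fatty acids), Marcksl1 (an actin regulator) and Fosl2 (an AP-1 subunit) had log2 fold changes of -1.30 ± 0.13, -1.27 ± 0.11, -1.19 ± 0.09 and -1.12 ± 0.11 (SE), with adjusted p-values of 1.60e-05, 2.57e-06, 1.33e-06 and 1.78e-05. Ifi44l and Cxcl2 complete the set.

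In the NF-κB list 2 of 19 tested genes fell, Bcl3 and Nfkbiz (whose values are given below), and Tnip3 rose, around a median of -0.29. The subunit genes Nfkb1 and Rela had log2 fold changes of -0.42 and -0.42, with adjusted p-values of 3.68e-04 and 0.0232 and folds under the limit. In the integrated stress response 4 of 22 genes fell and none rose by edgeR's test, around a median of -0.39. They were the amino acid transporters Slc7a11 and Slc7a5, at -1.02 ± 0.13 and -0.85 ± 0.10 (SE), with adjusted p-values of 9.99e-05 and 6.32e-05, the TORC1 inhibitor Sesn2 at -0.80 ± 0.10 (SE), adjusted p = 1.21e-04, and the stress cytokine Gdf15 at -0.72 ± 0.17 (SE), adjusted p = 0.0110. Slc7a11 is also an NRF2 target, and with Osgin1 (-0.99 ± 0.16 (SE), adjusted p = 9.03e-04) it made up the 2 falls among 17 NRF2 targets. Eicosanoid genes divided between Alox5, the 5-lipoxygenase, which fell with -0.98 ± 0.09 (SE), adjusted p = 5.91e-06, and Ptgs1 above. Ptgs2 and Ptges, which make prostaglandin E2, fell with -0.82 ± 0.20 and -0.77 ± 0.17 (SE) and adjusted p-values of 0.0135 and 0.00616, and the low thromboxane synthase gene Tbxas1 passed at 0.94 ± 0.29 (SE), adjusted p = 0.0398. That last call was lost on leaving out any one of 8 libraries, namely PBS replicates 1, 2, 3 or 6 or PE replicates 1, 2, 4 or 5 (log2 changes of 0.64 to 1.03, adjusted p-values of 0.0502 to 0.0961 in those fits).

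RAW264.7 cells can form osteoclasts, and osteoclast genes were mixed. Ctsk (cathepsin K) and Atp6v0d2 (a proton pump subunit) rose with log2 fold changes of 0.68 ± 0.19 and 0.87 ± 0.25 (SE) and adjusted p-values of 0.0238 and 0.0246. Nfatc1, the master factor of the lineage, fell with -0.74 ± 0.10 (SE), adjusted p = 1.73e-04, and Acp5 and Oscar fell with -0.90 ± 0.28 and -2.33 ± 0.67 (SE) and adjusted p-values of 0.0371 and 0.0266. Single libraries decided several of these calls. The call of Ctsk was lost without PBS replicates 2, 3 or 5 or PE replicate 1 (log2 changes of 0.56 to 0.66, adjusted p-values of 0.0544 to 0.0611 in those fits), that of Atp6v0d2 without PBS replicates 2, 3 or 5 or PE replicate 1 (log2 changes of 0.62 to 0.86, adjusted p-values of 0.0529 to 0.0637 in those fits), that of Acp5 without PBS replicates 1, 5 or 6 or PE replicates 2, 3, 4, 5 or 6 (log2 changes of -0.93 to -0.55, adjusted p-values of 0.0531 to 0.118 in those fits) and that of Oscar without PBS replicate 1 or PE replicates 2, 3 or 5 (log2 changes of -2.21 to -1.49, adjusted p-values of 0.0514 to 0.116 in those fits). The list median was -0.10 over 19 genes. No gene of DNA replication and mitosis was called by edgeR or by DESeq2 among 24. Of these, 9 had an unadjusted p under 0.05, as had 4210 of all 13544 genes tested. A negative log2 fold change was found in 23 of them, while 5983 of the 13544 were positive. The median of this list was -0.25, with Mcm2 at -0.44 and Cdc20 at -0.57.

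Of 5 tested MHC class II genes 2 rose, both from at or near the floor in PBS. Both could pass the count filter only through their PE counts. H2-Aa had 2 counts over the 6 PBS libraries and 3 to 41 in each PE library, with the most in replicate 1, a pooled ratio of 41.1 (exact 95% counting interval 11.1 to 345). H2-Ab1 reached 0.173–1.51 (median 0.700) CPM in PE against 0–0.159 (median 0.0385) in PBS. Neither call held in DESeq2. Cd74, the invariant chain, did not pass the fold limit, at 0.55 ± 0.18 (SE), adjusted p = 0.0499. None of 10 MHC class I genes was called by edgeR or by DESeq2. An unadjusted p under 0.05 was found for 4 of them, as for 4210 of all 13544 genes tested. Tap1 stood at -0.37 and Nlrc5 at -0.43, and the median was -0.09.

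**Figure D3:**
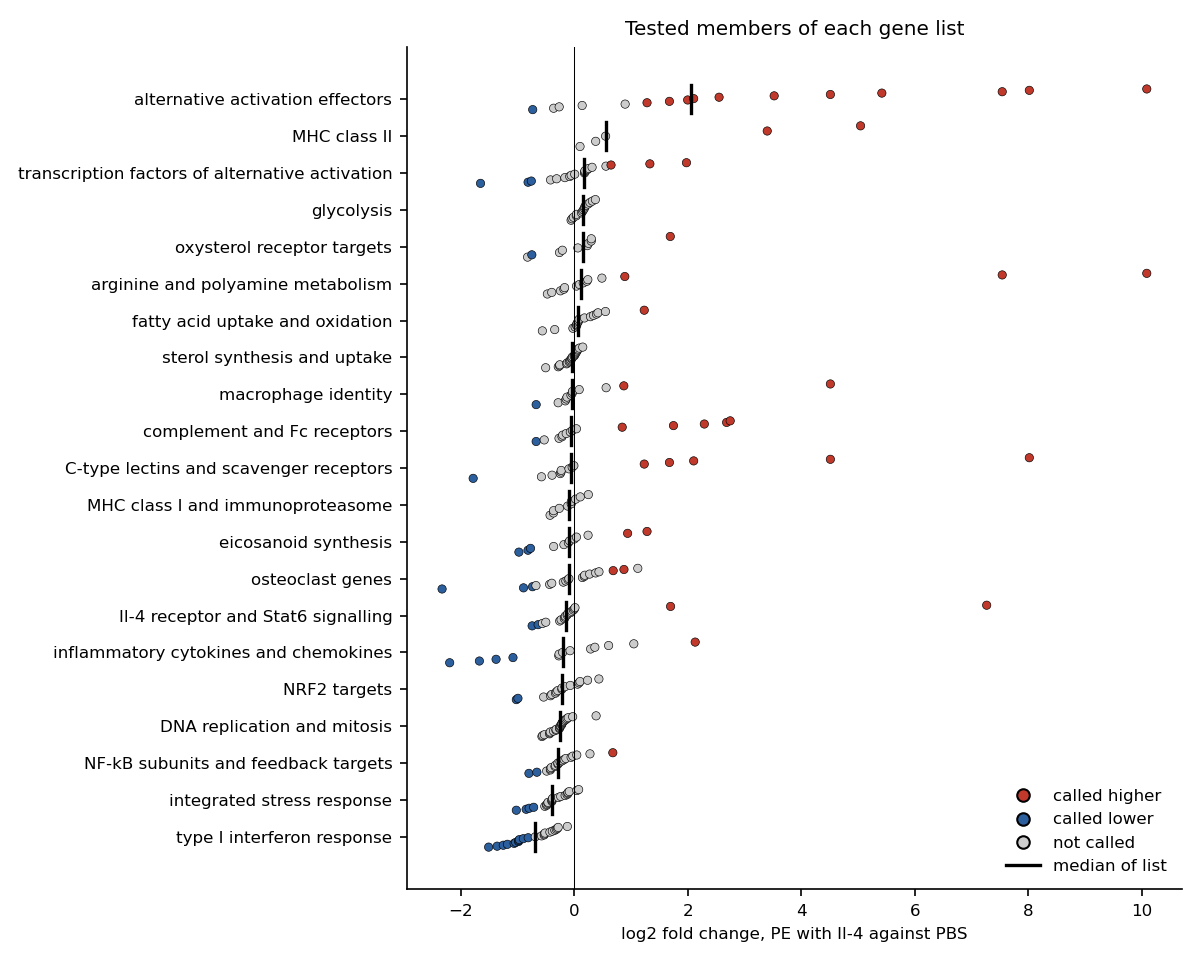
Log2 fold change of 65–79*PE with Il-4 against PBS (x axis) for each tested member of 21 gene lists (rows, ordered by median), with called genes in red (higher) or blue (lower), other genes in grey and a bar at the list median. Alternative activation effectors and arginine and polyamine metabolism reach equally far right through Slc7a2, a member of both. The type I interferon list lies wholly left of 0. The fitted values of Slc7a2, Arg1, Cish and H2-Aa rest on PBS counts at or near 0.

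The change was also fitted within each label set. Of 535 called genes that were tested in each set alone, 534 had the same sign in both. The calls were made on the same 12 libraries, so equal sign is largely fixed by that choice. Of all 11660 genes tested in both sets, 7333 (62.9%) had the same sign. Fitted alone, replicates 1–3 called 587 genes (4.84% of those tested) and replicates 4–6 443 (3.39%), and 171 were called in both, all in the same direction. That is 29.1% of the first set's calls and 38.6% of the second's. A test of the difference between the sets called 4 of 13876 genes (0.0288%). Il4i1 was the 1 gene among them that was also called above. Its change was 5.37 in replicates 1–3 and 3.50 in replicates 4–6, a difference of -1.82 ± 0.27 (SE, adjusted p = 0.0487), and PBS stood at 0.401 to 0.436 CPM in the first set and 0.893 to 1.32 CPM in the second. The other calls were Qser1, 4932438A13Rik and the gene model RP23-115O21.3. Of the 6 fits that left out a replicate number, the call of Il4i1 was kept in the one without replicate 1 and lost without replicate 2, 3, 4, 5 or 6, at differences of -2.03 to -1.67. The count rests on how replicate numbers are treated: taken as a block that pairs PE and PBS libraries of the same number, the test called 1180 genes (661 higher and 519 lower in replicates 4–6), 55 of them among the 641. Without the block, 2104 genes had an unadjusted p under 0.05, where 693.8 of the 13876 would be expected if no gene differed. The small number of calls therefore does not show that the sets agree. Rapgef5, Ints1, Ier2 and Bcl3, the next called genes in order of p, changed by -1.26, -0.21, -0.12 and -0.11 in replicates 1–3 and by -0.17, -1.04, -1.04 and -1.35 in replicates 4–6, and passed the test of the difference under the block but not without it. Over all 12 libraries their log2 changes were -0.69, -0.64, -0.59 and -0.66. The call of Ints1 was lost without PBS replicate 6 or PE replicates 4 or 5 (log2 changes of -0.57 to -0.55, adjusted p-values of 0.00937 to 0.0187 in those fits), that of Ier2 without PBS replicates 4, 5 or 6 or PE replicates 1, 4, 5 or 6 (log2 changes of -0.58 to -0.46, adjusted p-values of 0.0259 to 0.0671 in those fits) and that of Bcl3 without PBS replicates 2, 5 or 6 or PE replicates 1, 3, 4, 5 or 6 (log2 changes of -0.70 to -0.47, adjusted p-values of 0.0583 to 0.124 in those fits).

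**Figure D4:**
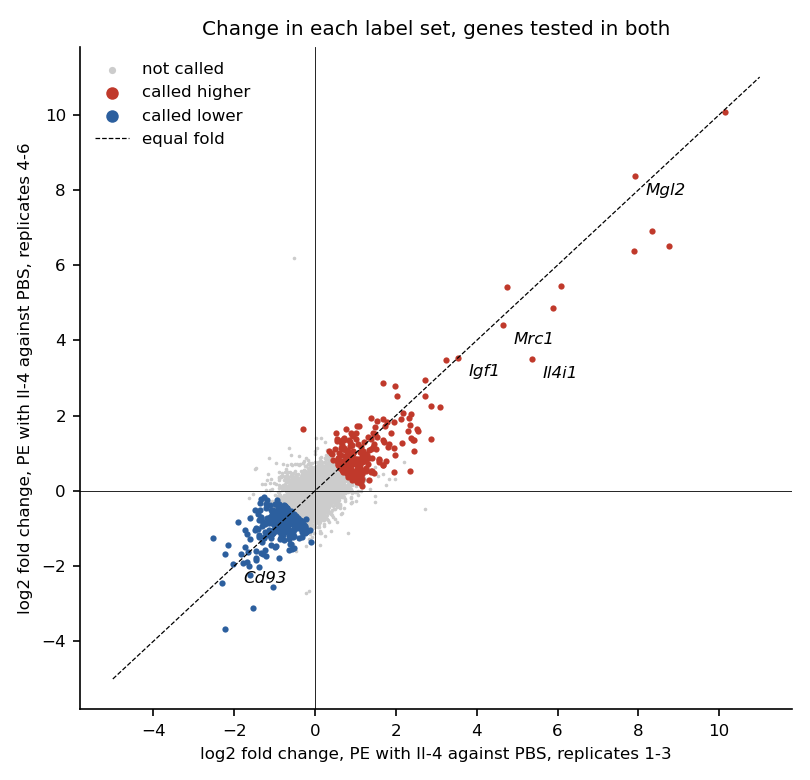
Log2 fold change of 65–79*PE with Il-4 against PBS in replicates 1–3 (x axis) and replicates 4–6 (y axis) for 11660 genes tested in both sets, coloured by the call over all 12 libraries; the dashed line marks equal change. The colours come from calls over these same 12 libraries, which places called genes in the quadrants of equal sign, with 1 exception. Il4i1 lies below the line.

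The SE group received 65–79*SE, a peptide from a susceptibility allele that differs from 65–79*PE at a few residues, at the same dose with the same Il-4 for the same time, so the comparison of PE with SE asks what differs between the peptides. No gene of 13617 was called by edgeR (0%), the smallest adjusted p was 0.214, and 1281 genes had an unadjusted p under 0.05. That is a larger share than the 0.05 expected if no gene differed. DESeq2 called 17 genes, 8 of them higher in PE. By its smallest adjusted p these were led by Rnase4, a secreted ribonuclease, at 0.80 (adjusted p = 3.41e-05 in DESeq2 and 0.214 in edgeR), and Mmp9, a gelatinase, at -1.56 (0.00263 and 0.369). They were named for their rank in that tool after their values were seen. A p above the threshold does not show that the peptides act alike, and the intervals leave room for differences. For Mgl2 the log2 difference of PE from SE was 0.48, with a 95% interval of 0.23 to 0.73 on 9 residual degrees of freedom. For Mrc1 it was 0.22 (-0.25 to 0.69). For Clec10a it was 0.39 (0.15 to 0.63). The adjusted p-values of these genes in edgeR were 0.369, 0.797 and 0.385. All intervals of this comparison are for single genes and are not adjusted for the number of genes tested. Against PBS, PE and SE gave 8.02 and 7.62 for Mgl2, 4.51 and 4.32 for Mrc1, 3.52 and 2.93 for Igf1, and -2.01 and -1.66 for Cd93, from fits that share the PBS libraries. By the same limits SE with Il-4 called 1.33% of genes higher and 0.615% lower than PBS. Among the 24 genes of the largest changes, the widest gaps between the peptides were Slc40a1 at -1.01 (-1.59 to -0.42), Ifi44l at -0.96 (-1.70 to -0.21), Siglec1 at -0.90 (-1.39 to -0.41) and Tlr8 at 0.84 (0.38 to 1.31). Their adjusted p-values in edgeR were 0.385, 0.390, 0.369 and 0.369, and Slc40a1, Siglec1 and Tlr8 are among the genes that DESeq2 called. SE replicate 4 was the highest SE library for Ifi44l, at 29.8 CPM against 6.28 to 9.71 CPM in the other 5, and for Slc40a1, at 10.8 CPM against 3.29 to 8.17 CPM. Without it, a fit added after these values were seen, the log2 differences were -0.82 for Slc40a1, -0.54 for Ifi44l, -0.65 for Siglec1 and 0.67 for Tlr8, with adjusted p-values of 0.353, 0.411, 0.330 and 0.330 in edgeR. In the same fit the log2 difference was 0.06 for Mrc1, 0.40 for Mgl2 and 0.29 for Clec10a. The 24 genes were chosen for a large change in PE, which the difference shares.

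With IFNγ in place of Il-4, the same peptide against the PBS of its own table was compared by the difference of the contrasts. The test of the difference between the cytokines called 4695 of 16547 genes, 28.4%, with 16.6% higher and 11.7% lower with Il-4. Levels were not set across the tables, which hold separate PBS groups, and each contrast was taken within its own table. With IFNγ, 7.25% of genes rose and 6.52% fell. Of the 328 genes that rose with PE and Il-4, 210 were higher by this test, 19 were lower and 99 did not differ past the threshold. Of the 313 that fell, 202 were lower, 12 higher and 99 neither. The genes entered this count for a large change with Il-4, which the difference shares.

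The genes most different by p on the side of Il-4 were Mgl2, Cldn11, Uqcrh, Serpinb9b, Lipn and Tmem26. Mgl2 changed by -0.65 ± 0.36 (SE) with IFNγ, a difference of 8.57 ± 0.42 (adjusted p = 8.46e-14). Lipn changed by -0.39 ± 0.29 with IFNγ, a difference of 5.38 ± 0.33 (adjusted p = 4.44e-12). Neither gene passed with IFNγ, and the other 4 fell there. Cldn11, a claudin of tight junctions, changed by 1.19 with Il-4 and -1.83 with IFNγ. Serpinb9b, a serine protease inhibitor, changed by 1.55 and -1.44, Tmem26 by 2.03 and -3.27, and Uqcrh, a subunit of respiratory complex III whose call with Il-4 lay at the fold limit, by 0.59 and -1.29. The call of Uqcrh with Il-4 was lost without PBS replicates 1 or 5 or PE replicate 3 (log2 changes of 0.55 to 0.58, adjusted p-values of 1.86e-04 to 3.75e-04 in those fits). On the other side stood Irgm2, Dusp6, Il17ra, Traf3ip3, Gpr84 and Nfkbiz. Irgm2, an interferon-induced GTPase, changed by -0.76 with Il-4 and 2.13 with IFNγ, a difference of -2.84 ± 0.16 (adjusted p = 7.97e-13). Nfkbiz (IκBζ) changed by -0.80 and 1.42, Dusp6 by -1.55 and 0.96, Traf3ip3 by -0.77 and 1.11, Gpr84 by -1.27 and 0.70, and Il17ra by -1.65 and 0.45. All 6 fell with Il-4 and had positive changes with IFNγ, and the adjusted p of the difference was at most 5.34e-10 for all 12 genes. Some rises were shared in sign: Clec7a changed by 2.33 with IFNγ and Cd36 by 2.14, against 1.68 and 1.23 with Il-4.

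**Figure D5:**
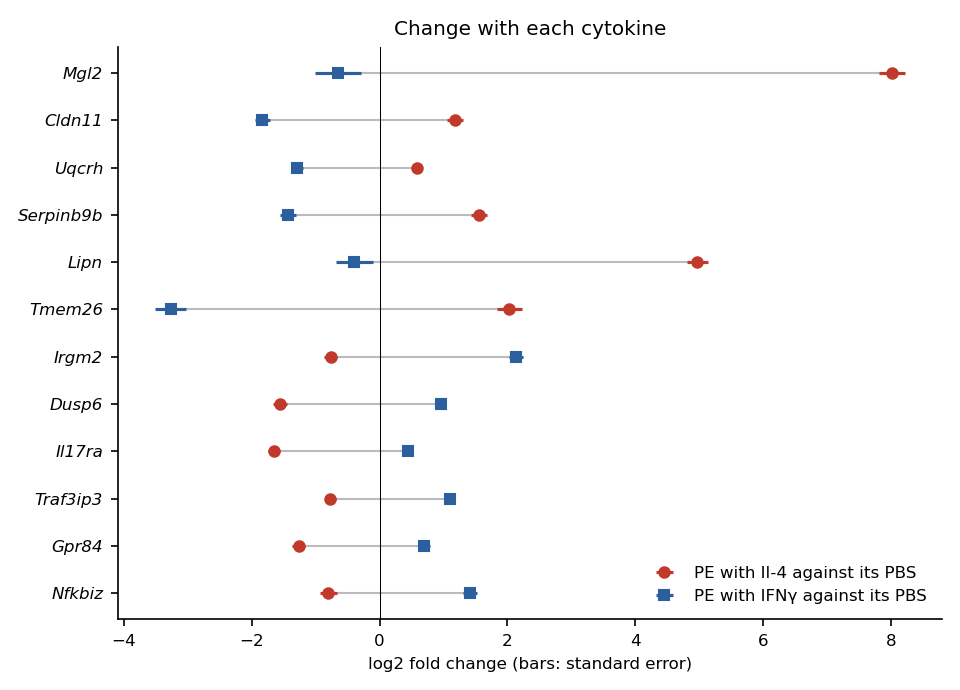
Log2 fold change of 65–79*PE with Il-4 (red circles) and of 65–79*PE with IFNγ (blue squares) against the PBS group of the same table (x axis) for 12 genes (rows), with bars of 1 standard error. The upper 6 genes lie right of 0 with Il-4 and left of 0 with IFNγ, and the lower 6 the other way round.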

How the data were processed

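For each cytokine the authors deposited 1 table of raw gene counts, in whole numbers and without normalization. By the study's methods, libraries were stranded and poly(A)-selected, and uniquely aligned reads were counted with featureCounts on GENCODE annotation. The methods describe no separate preparation for either label set. The shares of histone and protein-coding counts given above nevertheless differed between the sets, and whether both were prepared alike was not tested. The submitters' processing notes name featureCounts, DESeq2 1.16.1, R 3.4.1 and build GRCm38.p5. The aligner and strand setting are not given in the sources used here. Without a known strand setting, reads of overlapping antisense genes could not be told apart. Gene positions and classes were taken by symbol from GENCODE M21 (GRCm38), a later release. Date-like strings stood in place of 26 gene names.

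Counts of the 12 libraries were fitted with edgeR 4.0.16 in R 4.3.3 (TMM, filterByExpr, glmQLFit and glmQLFTest, two-sided, Benjamini-Hochberg) with group and label set as terms. Calls needed an adjusted p-value under 0.05 and, except in tests of a difference of contrasts, a fold over 1.5. The difference between label sets, 65–79*PE against 65–79*SE (12 libraries) and the difference between cytokines (24 libraries) were fitted the same way. CPM shown are TMM-scaled over the 18 libraries of the Il-4 table. The scripts were tested on simulated counts. DESeq2 1.42.0, other normalization and filters, fits within label sets and fits without single libraries or replicates were alternatives.

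The replicates are cultures of 1 line, from 2 independent experiments by the study's account. The p-values measure the spread between cultures within a label set, not between experiments. No pair of libraries of a group was as close as counting noise. Total counts of 17049921 to 30639021 set the precision, and a count of 0 allows up to 3. Genes were named by a rule: the 12 largest rises and falls of at least 10 CPM with no overlap within label sets, leaving out histone genes and unnamed models, members of 24 lists by lowest p, and the genes with the lowest p for the 2 differences of contrasts. The members, lists and rule were chosen with earlier results of these data known. The PBS libraries carry the cytokine of their table in their titles but PBS alone as treatment, and are reported as labelled. In those of the Il-4 table, Cish and Arg1 stood at or near the floor. A member of the gene lists and a promoter window were left out and are not reported here.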

Additional observations from a re-analysis of the deposited data

Results flagged for a closer look

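9 of 67 groups of 6 libraries had a library far from the others by Dixon's criterion, which chance gives for about 1 group in 20. PE replicate 1 was the highest of its group in 6 of them, at 75.6 CPM for Mmp12, 52.97 for Mrc1, 88.5 for Itgax, 1.36 for Maf, 20.4 for Ccl6 and 1.55 for H2-Aa. PBS replicate 1 was the highest for Igf1 at 81.1 CPM and for Maf at 4.01. PBS replicate 5 was the highest for Arg1 at 0.1495 CPM, which is 3 counts. Without PE replicate 1 the log2 fold changes of Mmp12, Mrc1 and Itgax were 4.90, 4.41 and 2.34, and all 3 calls remained.

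The change against PBS differed between the label sets for 4 genes, of which Il4i1, at -1.82 on the log2 scale (replicates 4–6 minus 1–3), was also called against PBS. With the replicate number as a block, 1180 genes differed between the sets. The change differed between the cytokines for 4695 genes, by a test of the difference itself. Among the 12 with the lowest p, Mgl2 (8.57), Tmem26 (5.38), Lipn (5.38), Cldn11 (3.08), Serpinb9b (3.05) and Uqcrh (1.93) had a higher log2 change with Il-4, and Irgm2 (-2.84), Dusp6 (-2.45), Nfkbiz (-2.16), Il17ra (-2.04), Gpr84 (-1.91) and Traf3ip3 (-1.82) a lower one.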

How the results depend on the processing

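The count of 641 genes for PE with Il-4 against PBS stayed within 1.5 times under every alternative but the fit with no label set term, which called 125 (66 higher and 59 lower). It ran from 468 to 676 without each replicate number and from 554 to 689 without each library. Of 87 called genes examined, 42 kept the call in every alternative run for them, 45 lost it in at least 1 and 0 reversed. The count for the label set difference, 4, was 0 with RLE normalization, 410 with no low count filter, 0 with at least 10 counts in every library and 0 to 39 without a replicate number. The count for PE against SE, 0, was 166 with no low count filter, 17 in DESeq2 and 1 (Rnase4) with all 18 libraries in one fit, and 0 without any replicate number or any single library. The count for the cytokine difference, 4695, was 2457 in replicates 4–6 alone, 4052 in replicates 1–3 alone and 3600 to 4692 without a replicate number. The cause of these shifts was not tested. The alternative without histone and small RNA genes, which called 620, and the fits of PE against SE without single libraries were chosen after seeing the data.

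Same-numbered PE and PBS libraries deviated together with correlations of 0.0783 to 0.426 over 13544 genes, and 10 of 12 libraries correlated best with their own number within a set. Replicate 2 was under 0.1. Over the 9735 genes of at least 5 CPM the correlations were 0.180 to 0.672, all over 0.1. Every correlation was thus positive with either set of genes, and only whether replicate 2 passed 0.1 depended on the genes used. Both checks were made with the blocked counts already known. The calls in the report come from fits without the block. With the replicate number as a block, PE against PBS called 739 genes, 610 of them among the 641, PE against SE 0, the cytokine difference 4553 and the label set difference 1180 in place of 4. Depth limits genes near 3 counts, such as Cish and Arg1 in PBS.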
